A study of Homo sapiens with 16 samples.

Results

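At 9821 places in the genome of RPE-1 cells, an RNA polymerase II (Pol II) peak was called after 30 min of merbarone, a catalytic inhibitor of DNA topoisomerase II, and neither in control cells nor after 1 h of the drug. They were chosen by that pattern of presence, after peaks of the 3 Pol II lists that shared at least 1 bp had been merged into 104562 regions, and a site had to be no narrower than the narrowest peak of the 1 h list. They made up 9.39% of the merged regions, and each consisted of a single 30 min peak. Because presence in the lists chose them, their absence from control and from 1 h is a description with no test. They are called 30 min only sites and not transient sites, since the lists hold calls and no signal, and a call missed at 1 h cannot be told apart from Pol II that had left.

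Pol II was mapped by chromatin immunoprecipitation and sequencing of the subunit RPB1 in the wild-type human cell line hTERT RPE-1, retinal pigment epithelium made immortal with telomerase. All cells were first held in 0.1% serum for 48 h. The 30 min list stood for 3 libraries given merbarone at 200 uM, the 1 h list for 2 libraries at the same dose, and the TOP2A list for 2 untreated libraries. The control list stood for 3 libraries given vehicle (DMSO) for 30 min and 3 untreated libraries as 1 set, so no control matched the 1 h time. Each condition had 1 list, with no score or depth, so the spread between replicates could not be measured and no comparison between conditions has a test. Intervals in brackets are 95% intervals for the counting of sites only, and neighbouring sites are not independent.

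Pol II starts at promoters, commonly pauses a short way downstream, and then travels along the gene body, building up positive supercoils ahead of it and negative supercoils behind it. Topoisomerase II, of which TOP2A is the alpha form, relieves this twist by passing one DNA duplex through another. Merbarone stops the enzyme before it cuts DNA. A ChIP peak of Pol II may therefore mark a promoter, a stretch of a transcribed gene, or a distal element that recruits Pol II. No annotation of the hg19 build was used here, so none of the positions below is given a gene.

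Most of the sites were short. Their median width was 194 bp (193 to 195), with the lower quartile at 172 bp, the upper quartile at 239 bp and the widest site at 985 bp. A width of 300 bp or more was found in 1027 sites (10.5%), and 69 sites (0.703%) reached 500 bp. The merged regions held a further 3755 places found at 30 min only that were too narrow for the limit. Just outside the limit, 219 regions measured 158 bp and were left out, and just inside it, 225 regions were 1 bp wider and were kept. The smallest peak of the 30 min list was 150 bp, a width shared by 1582 of the 30 min only regions.

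The 30 min peaks that had a partner in another list were wider. Among 30 min peaks that met the width limit, the median was 194 bp for the sites, 225 bp (222 to 227) where a 1 h peak lay in the same region, and 227 bp (222 to 230) where a control peak did. It was 436 bp (431 to 441) where all 3 lists had a peak. The share of peaks of 300 bp or more was 10.5% in the sites, 24.5% with a 1 h partner, 25.6% with a control partner and 66.2% with both. A wider peak has more chance of meeting a peak of another list, so this order is partly set by the rule.

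The mirror image of the sites, 6424 regions found in control only and held to the same width limit, had nearly the same widths, with a median of 196 bp (195 to 197) and 9.76% at 300 bp or more. The 24925 regions found at 1 h only were somewhat wider, at a median of 218 bp (217 to 219), with 24.97% at 300 bp or more. The 9198 regions found at both merbarone times and not in control had a median of 370 bp, but each joins peaks of 2 lists and so is wide by construction.

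**Figure D1:**
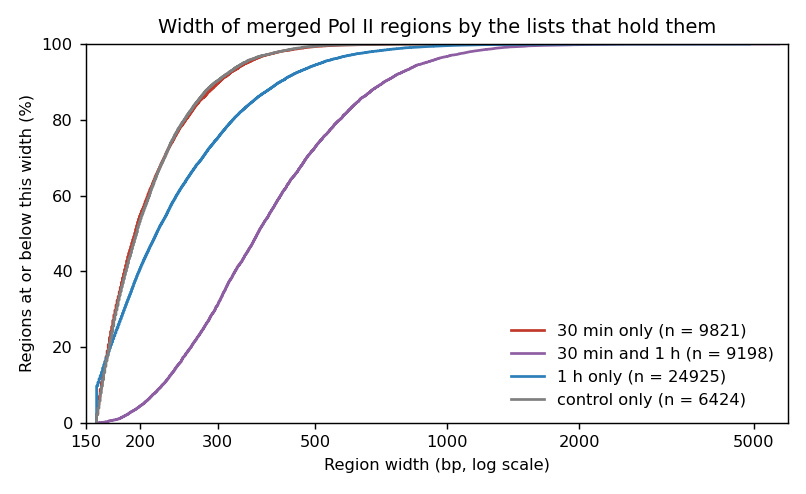
Share of regions at or below each width (vertical axis, percent) against region width in bp on a log scale, for regions that met the width limit. The curve of the 30 min only sites lies on that of the control only regions (medians 194 and 196 bp), to the left of the 1 h only regions (218 bp) and of those found at both merbarone times (370 bp).

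The 10 widest sites ranged from 699 to 985 bp. The widest, on chromosome 16 from 88721463 to 88722447, lay 1093 bp from the nearest control peak and 761 bp from the nearest 1 h peak. It stood only 4 bp from another 30 min peak, and it was no longer a 30 min only site when peaks of each list up to 37 bp apart were joined. The other 9 kept their class under that joining.

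Some of these wide sites sat in stretches where Pol II cover was higher at 30 min than in control and lower at 1 h than in control. For these stretches, called domains, Pol II peaks of all lists no more than 5 kb apart were strung together, and the cover of a domain is the percentage of its bases under peaks of a list. The 753 bp site on chromosome 11 from 122685276 to 122686028 lay in a domain of 1835 bp with a cover of 19.4% in control, 86.0% at 30 min and 0% at 1 h. Its nearest 1 h peak was 22385 bp away, and its nearest control peak was 224 bp away. The 732 bp site on chromosome 1 from 120457837 to 120458568 lay in a domain of 10017 bp whose cover was 26.0% in control, 43.4% at 30 min and 19.8% at 1 h.

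Others sat where cover was highest at 30 min and at 1 h was still above control. The 723 bp site on chromosome 3 from 44161070 to 44161792 lay in a domain of 4268 bp whose cover was 37.4% in control, 82.1% at 30 min and 53.3% at 1 h. On chromosome 7 from 43847741 to 43848461, a 721 bp site lay in a domain of 2859 bp whose cover was 14.3%, 49.6% and 24.4% in that order of times. On chromosome 9 from 130358807 to 130359585, a 779 bp site lay in a 139819 bp domain whose cover barely differed between control (59.0%) and 30 min (59.8%) and was higher at 1 h (66.2%). Wide sites thus stood in domains of different course.

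The 4 remaining sites of these 10 lay on chromosome 15 from 48781970 to 48782740 (771 bp), on chromosome 2 from 9457687 to 9458432 (746 bp) and from 190744007 to 190744731 (725 bp), and on chromosome 3 from 66452127 to 66452825 (699 bp). The first of them belonged to a domain with 41 sites, the second to a domain with 32, and the last to a domain with 25 whose cover was 16.4% in control, 34.5% at 30 min and 10.5% at 1 h. On chromosome 2, the 725 bp site stood alone, 94252 bp from the nearest control peak and 94363 bp from the nearest 1 h peak.

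Next, the distance from each site to the Pol II peaks of the other conditions was measured from edge to edge. The sites lay close to control and 1 h peaks. The median distance was 859 bp (815 to 893) to the nearest control peak and 662 bp (633 to 696) to the nearest 1 h peak. A control peak stood within 1 kb of 53.9% of the sites and within 5 kb of 83.7%, and a 1 h peak stood within 1 kb of 58.7% and within 5 kb of 84.5%. For 7586 sites (77.2%, 76.4 to 78.1) control and 1 h peaks both lay within 5 kb.

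Some sites missed a partner by little. A control peak lay within 100 bp of 974 sites (9.92%) and a 1 h peak within 100 bp of 1255 sites (12.8%), and 7 sites touched a control peak and 9 a 1 h peak without sharing a base. Merging peaks of the 3 lists up to 37 bp apart left 8664 of the 9821 sites (88.2%) without a partner. Of all sites, 5654 (57.6%) were nearer to a 1 h peak and 4154 (42.3%) nearer to a control peak.

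The nearest control peak was farther for the sites than for regions found at both merbarone times, where the median was 656 bp (625 to 681). It was nearer than for regions found at 1 h only, where the median was 1470 bp (1430 to 1508). Seen from the 1 h list, the sites (662 bp) and the control only regions (642.5 bp, 610 to 674) lay at distances whose intervals overlap. A total of 34.1% of 30 min peaks were absent from control and 15.8% were absent from control and 1 h, before the width limit. The distance of a site from other peaks depends on how many peaks each list holds and on how wide they are. The lists held 87911 peaks in control, 85990 at 30 min and 81816 at 1 h. Peaks of the 1 h list were the fewest but the widest, with a median of 347 bp, and took up 58.3 Mb. Control peaks were the narrowest, with a median of 242 bp, and took up 42.8 Mb. The 30 min peaks lay between, with 277 bp and 47.7 Mb. The distances to control and 1 h peaks were not adjusted for this.

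**Figure D2:**
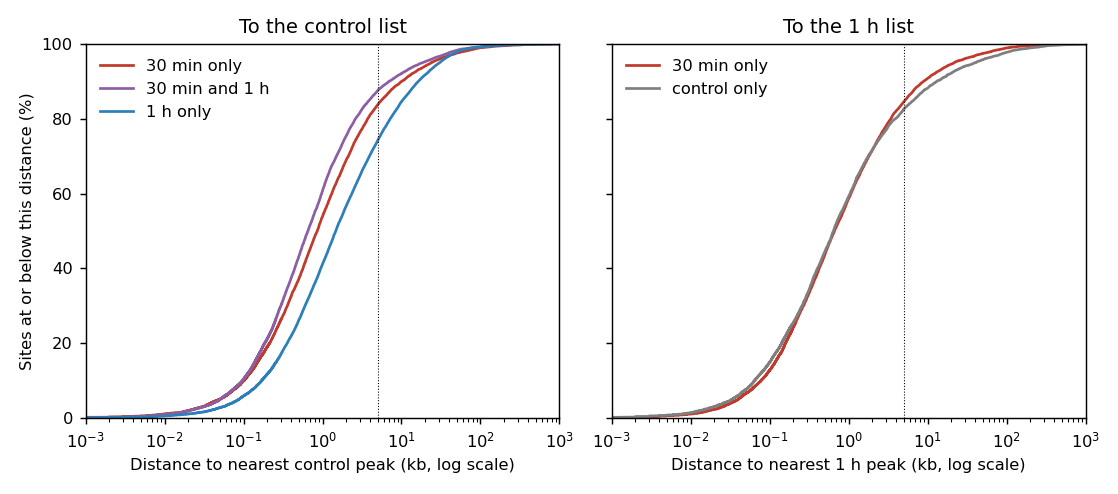
Share of sites at or below each distance (vertical axis, percent) from the nearest control peak (left) and the nearest 1 h peak (right), in kb on a log scale; the dotted line marks 5 kb. The 30 min only sites run between the other classes on the left, with 83.7% within 5 kb of a control peak, and close to the control only regions on the right.

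Many sites lay within gaps between control peaks. For 4360 sites (44.4%, 43.4 to 45.4) a control peak stood within 5 kb on each side. The gap between these control peaks had a median length of 2284 bp (2215 to 2364), and the site took up a median of 9.29% of it. Width changed little with distance, from a median of 196 bp in the 383 sites within 37 bp of a control peak to 188 bp in the 985 sites over 10 kb away.

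A small group stood apart from other Pol II. Over 10 kb lay between 515 sites (5.24%, 4.82 to 5.70) and every control and 1 h peak, and 325 of them were also over 10 kb from any other site. These 515 were found on all 23 chromosomes with Pol II peaks, had a median width of 185 bp (182 to 190), and 38 of them reached 300 bp.

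The widest of the isolated sites was the 725 bp site on chromosome 2 from 190744007 to 190744731. The next, on chromosome 2 from 239320091 to 239320616, spanned 526 bp and lay 10681 bp from the nearest 1 h peak and 2297 bp from another site. The third, on chromosome 20 from 42345739 to 42346244, spanned 506 bp and had a further site only 80 bp away. The site on chromosome 1 from 6525766 to 6526265 spanned 500 bp and had another at 737 bp. The last, on chromosome 13 from 22062377 to 22062867, spanned 491 bp and had another at 218 bp. Thus 4 of these 5 had company from another 30 min only site. No list of regions that give signal with any antibody was applied, and the part of such regions in the isolated sites was not tested.

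The nearest neighbour of a site was most often another 30 min only region of any width. This was so for 2611 sites (26.6%, 25.7 to 27.5), while 2358 (24.0%) stood next to a region held by all 3 lists. A 1 h only region was the nearest neighbour of 14.8%, a control only region of 12.9%, a region of both merbarone times of 11.6% and a region of control and 30 min of 7.57%. Among all merged regions, 30 min only regions of any width made up 13.0% and regions of all 3 lists 32.6%. The share was 23.8% for 1 h only regions, 12.3% for control only, 8.80% for both merbarone times and 4.57% for control and 30 min. A neighbour of the same class was found for 42.0% of the 1 h only regions, 24.0% of the control only regions and 14.8% of the regions of both merbarone times. Each of these was above that class's share of all merged regions, so this trait was not particular to the sites. The control only regions (29.2%) and those of both merbarone times (31.4%) most often stood next to a region of all 3 lists.

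Clusters were counted by joining sites up to 1 kb apart. At least 1 other site lay within 1 kb of 2727 sites (27.8%, 26.9 to 28.7), and these formed 1181 clusters, of which 266 held 3 or more sites. Such closeness was not particular to the sites. Another region of the same class lay within 1 kb of 27.5% (26.6 to 28.4) of the regions of both merbarone times. The share was 44.1% (43.5 to 44.8) in 1 h only regions and 19.9% (18.9 to 20.9) in control only regions. The cluster with the most sites held 9 over 5903 bp on chromosome 7 from 4798746 to 4804648. Cover of its span was 2.30% in control, 58.5% at 30 min and 0% at 1 h. On chromosome 8 from 23181482 to 23184739, 7 sites over 3258 bp lay where neither control nor 1 h had any peak, and 30 min peaks covered 55.0% of the span.

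The other 3 of the 5 clusters with the most sites held 6 each. On chromosome 12 from 1736068 to 1740058 cover was 3.41% in control, 56.0% at 30 min and 0% at 1 h. On chromosome 22 from 20935788 to 20939783 it was 7.91%, 49.9% and 0% at these times. On chromosome 1 from 9788171 to 9791054 it was 0% in control, 58.8% at 30 min and 15.4% at 1 h, so that 1 h cover there was above control. Because the sites themselves have no control or 1 h peak, low cover in those lists within a cluster is partly fixed by the choice of sites.

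Over whole domains, sites occurred in 4958 of 22314 Pol II domains (22.2%). A single site was found in 3052 of them. At the other end, 305 domains held 5 or more sites and together 2703 sites (27.5%), and 68 domains held 10 or more. A set of 644 domains consisted of 30 min only peaks alone, with 761 sites between them and no more than 5 in any. Domains of 10 to 50 kb held 43.9% of the sites, those of 2 to 10 kb 27.9%, those of 50 kb or more 16.0% and those under 2 kb 12.3%. Per Mb of domain length the order was the reverse of domain width, with 124.7 sites under 2 kb, 87.0 from 2 to 10 kb, 72.2 from 10 to 50 kb and 63.3 at 50 kb or more. Domains are built from the peaks, so a short domain that holds a site is dense by construction. Under 2 kb, 1 h only regions (329.3 per Mb) and control only regions (104.7) were also densest. Regions of both merbarone times differed little, with 75.3 under 2 kb and 71.0 at 50 kb or more.

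The domain with the most sites held 46. It spanned 106 kb on chromosome 5 from 14282048 to 14388504 and its cover was 4.003% in control, 16.9% at 30 min and 5.07% at 1 h. Sites were spread along its length, with 12, 9, 12 and 13 sites in its 4 equal segments in order. In each segment 30 min cover was above control and 1 h cover. The sites alone made up 9.96% of the domain and count in 30 min cover only. Ranking domains by their sites thus partly fixes this height at 30 min. Among regions that met the width limit, it held 6 found at 1 h only and 7 found in control only.

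A domain of 74.0 kb on chromosome 9 from 37902806 to 37976774 held 36 sites and no region found at 1 h only. Its cover was 21.3% in control, 35.8% at 30 min and 14.8% at 1 h. In the first of its 4 equal segments, cover was 47.9% in control, 62.7% at 30 min and 45.5% at 1 h, with 8 sites. In the third segment, with 12 sites, these were 17.9%, 39.6% and 8.32%, and in the last, with 10 sites, 10.5%, 28.3% and 2.78%. In the second segment, with 6 sites, they were 8.88%, 12.7% and 2.37%. Cover was highest in the first segment in all 3 lists, and in each segment it was highest at 30 min and lowest at 1 h. Sites made up 10.8% of this domain, so its height at 30 min is again partly fixed by the ranking.

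The other 3 domains with the most sites were wide and had more cover at 1 h than at 30 min. On chromosome 1 from 201505508 to 201800000, a 294 kb domain with 36 sites had a cover of 28.6% in control, 41.6% at 30 min and 52.9% at 1 h. No site lay in the first of its 4 segments, and there cover was 27.5% in control, 29.0% at 30 min and 81.6% at 1 h. Its second segment held 22 sites, and there cover was 35.6% in control, 55.9% at 30 min and 28.7% at 1 h. In the third segment cover was 24.7%, 42.7% and 55.2% at the 3 times in order, and in the last 26.4%, 39.0% and 46.3%, with 7 sites in each. Cover was thus above control at both merbarone times in the last 2 segments, and at 1 h it was below control in the second segment alone.

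On chromosome 10 from 13673761 to 14216720, a 543 kb domain with 44 sites had a cover of 32.2%, 40.7% and 45.4% at the 3 times in order. The last of its 4 segments held 19 of the sites, and cover there was 23.4% in control, 21.5% at 30 min and 6.48% at 1 h. On chromosome 15 from 48691603 to 48939920, a 248 kb domain with 41 sites had a cover of 19.3%, 23.4% and 26.7%. The second segment held 19 of its sites, with cover of 15.3% in control, 24.8% at 30 min and 9.81% at 1 h. In these 3 domains and that of 74.0 kb on chromosome 9, the segment with the most sites had less cover at 1 h than in control. In the domain on chromosome 9 this held in every segment. In the domain on chromosome 5 the segment with the most sites, its last, had more. Sites have no control or 1 h peak by choice, so cover in segments picked for their sites is partly fixed by the rule.

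**Figure D3:**
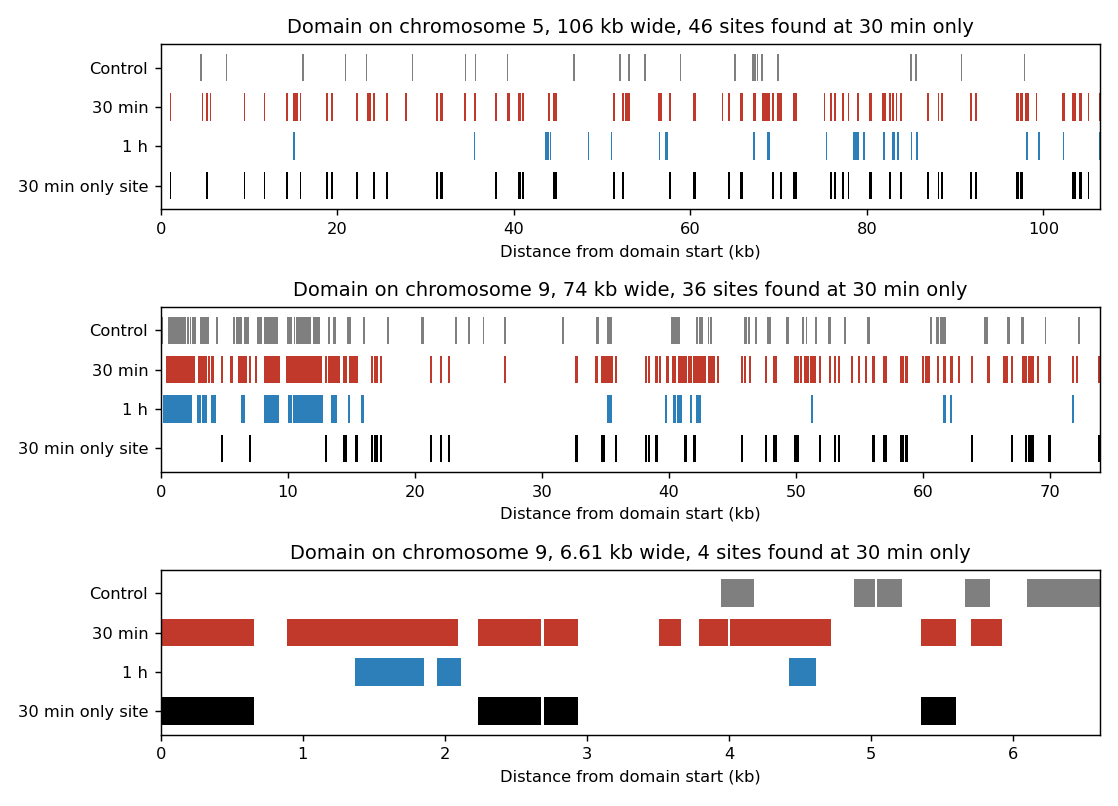
Peaks of the control, 30 min and 1 h lists and the 30 min only sites (rows, top to bottom) against distance in kb from the domain start, for a domain on chromosome 5 (46 sites) and domains on chromosome 9 with 36 and 4 sites. In the middle map peaks of all 3 lists are densest near the start of the domain, and beyond it 1 h peaks are few (2.78% of the last segment, against 28.3% at 30 min).

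Among domains of at least 5 kb, the sites took up the largest share of length on chromosome 14 from 105122427 to 105127771, where 5 sites made up 25.2% of the domain. Cover there was 5.72% in control, 32.1% at 30 min and 14.1% at 1 h. On chromosome 1 from 9784119 to 9791054, 7 sites made up 24.1% of the domain, and cover was 21.3%, 63.6% and 33.6% at the 3 times in order. On chromosome 9 from 132996702 to 133003315, 4 sites made up 24.1%, and cover was 19.0% in control, 61.8% at 30 min and 12.7% at 1 h.

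Next among these was chromosome 12 from 3150267 to 3157132, where 5 sites made up 20.7% of the domain and cover was 6.32% in control, 28.4% at 30 min and 7.95% at 1 h. Last came a domain on chromosome 1 from 113059465 to 113065414, where 4 sites made up 19.4%. No control peak lay in that domain, its 30 min peaks were the 4 sites, and 1 h peaks covered 3.63%. These 5 domains were ranked by their length in sites, which count in 30 min cover alone. The height of their 30 min cover over control and 1 h is thus partly fixed by that ranking.

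A domain-wide rise at 30 min that had receded at 1 h was uncommon. Of 5902 domains of at least 5 kb, 230 (3.90%) had 30 min cover at least 10 percentage points above control and also at least as far above 1 h. Of these 230, 219 held a site, while 50.4% of all 5902 did. Of the 302 domains with 5 or more sites, 66 (21.9%) were of this kind, and 107 (35.4%) had more cover at 1 h than at 30 min. The share of all 5902 domains with more cover at 1 h than at 30 min is not given here. Over the genome, 1 h peaks covered 58.3 Mb, 30 min peaks 47.7 Mb and control peaks 42.8 Mb. A site adds to 30 min cover alone, so the choice of sites partly sets all the shares of domains above. The contrast of 219 of 230 with 50.4% is among them and is no test.

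Cover was also compared between domains of at least 5 kb with many sites and with few. With all bases of such domains pooled, those with 10 or more sites had a cover of 22.3% in control, 30.1% at 30 min and 31.1% at 1 h. Those with 1 site had 31.4%, 35.8% and 44.0%, and those with none 34.5%, 35.6% and 49.96% at the same times. A site has no control or 1 h peak by choice, so lower cover in those lists where sites are many is partly set by the rule. The domains with 10 or more sites were also wider, with a median of 71.5 kb against 8.999 kb for those with none.

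To see the surroundings without the sites' own bases, cover was averaged over the flanks of each site midpoint. From 1 to 5 kb on either side, Pol II peaks covered 13.7% of bases in control, 19.1% at 30 min and 17.9% at 1 h. In these flanks 30 min cover exceeded control cover at 69.2% of the sites and was under it at 19.4%. Cover at 1 h exceeded that at 30 min at 40.7% of the sites and was under it at 48.5%. From 500 bp to 1 kb the means were 12.3% in control, 20.1% at 30 min and 17.6% at 1 h. From 5 to 10 kb they were 12.2%, 15.7% and 15.5%, so the lists of the 2 merbarone times nearly met.

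The course around other classes of region differed from this. In the flanks from 1 to 5 kb, regions found at both merbarone times had 16.4% in control, 22.1% at 30 min and 28.4% at 1 h. Regions found at 1 h only had 11.5%, 13.7% and 24.7%, and regions found in control only had 17.4%, 18.4% and 20.2%. Among these 4 classes, cover in the flanks was lower at 1 h than at 30 min around the 30 min only sites alone. Flanks were not measured for regions of control and 30 min, which also lack a 1 h peak. Flanks of neighbouring sites overlap and hold further sites, so these means are not independent of the rule, and the differences between classes were not tested. Nor was flank cover scaled to each list's cover of the genome, which was highest at 1 h and lowest in control.

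**Figure D4:**
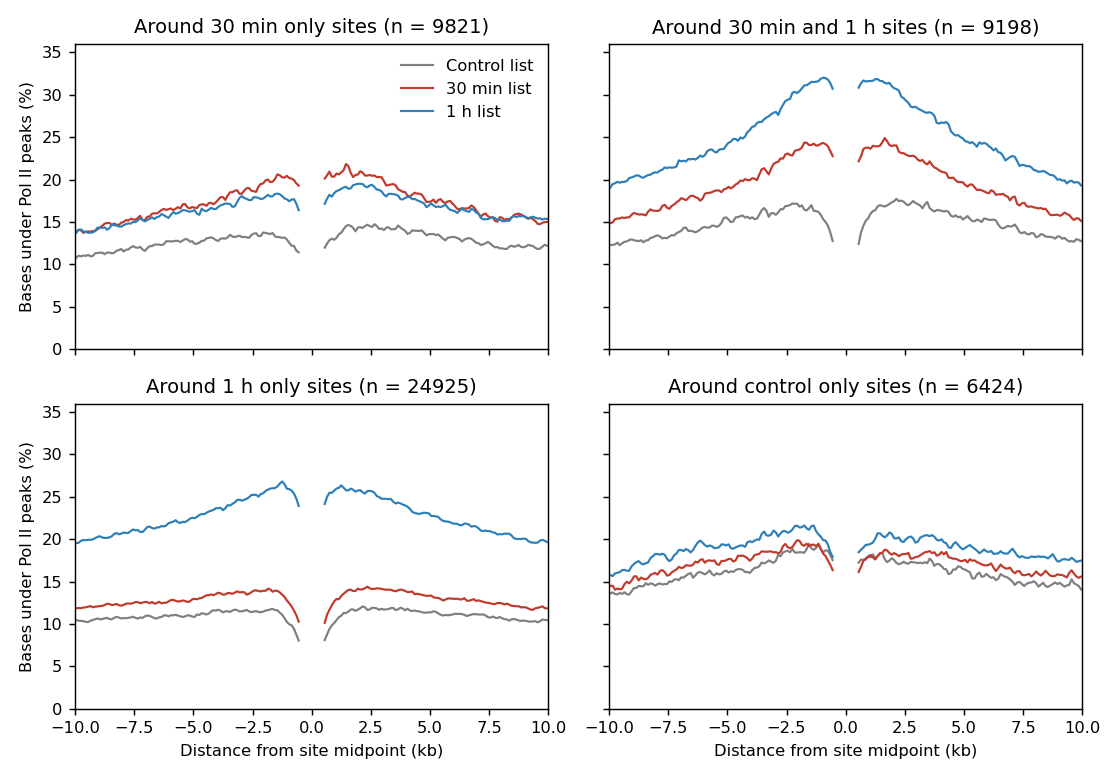
Mean share of bases under Pol II peaks of the control, 30 min and 1 h lists (vertical axis, percent) in bins of 100 bp against distance in kb from the midpoint of a region, in 4 panels by class, with the central bins, where the regions themselves lie, left out. Around the 30 min only sites the 30 min curve is the highest within 5 kb, and around the other 3 classes the 1 h curve is.

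Sites were found on every chromosome with Pol II peaks. They numbered 1054 on chromosome 1 and 105 on chromosome 21. As a share of the 30 min peaks of a chromosome, they were 11.4% in all and ranged from 8.62% (7.59 to 9.79) on chromosome 20 to 18.8% (16.8 to 21.0) on chromosome 13. Chromosome 18 followed with 16.0% (14.0 to 18.2), then chromosome 8 with 14.6% (13.3 to 16.0) and chromosome 5 with 14.4% (13.4 to 15.4). Median widths by chromosome lay between 189 and 201 bp. The median distance to a control peak was longest on chromosome 8, at 1226 bp, and shortest on chromosome 10, at 601 bp.

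**Figure D5:**
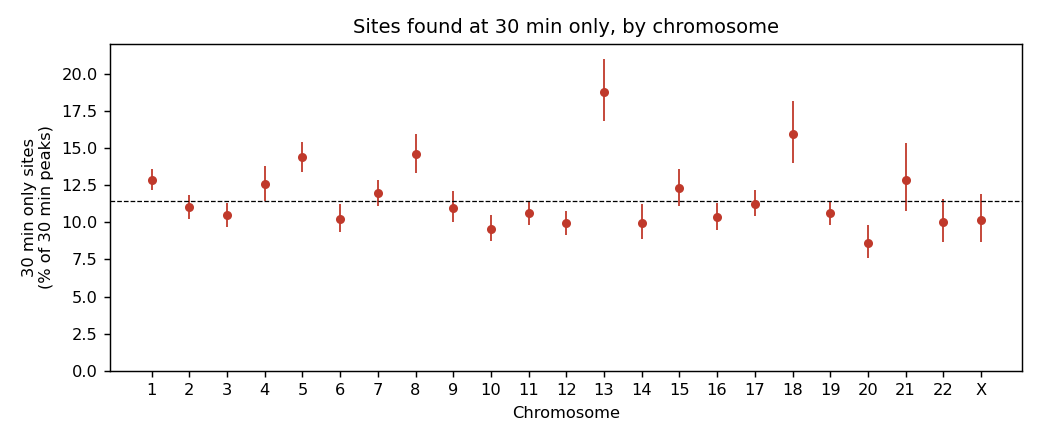
Sites found at 30 min only as a percentage of the 30 min peaks (vertical axis) on each chromosome, with 95% Wilson intervals that cover counting only. The dashed line marks 11.4% over all chromosomes; chromosome 13 stands highest at 18.8% and chromosome 20 lowest at 8.62%.

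TOP2A, mapped in cells without merbarone and not used to choose the sites, was rare at them. A TOP2A peak overlapped 8 of 9821 sites (0.0815%, 0.0413 to 0.161), against 1.14% of all merged Pol II regions. The share was 0.0544% (0.0232 to 0.127) in regions of both merbarone times, 0.0401% (0.0218 to 0.0738) in 1 h only regions and 0.125% (0.0631 to 0.246) in control only regions, and all of these intervals overlap that of the sites. It was 3.35% (3.16 to 3.55) in regions held by all 3 lists, whose median width was 1007 bp. Among regions of all 3 lists no wider than 985 bp, the share was 0.882% (0.751 to 1.04), though their median of 585 bp was still above that of the sites.

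Per Mb of region length, 3.74 of the sites held TOP2A, against 14.8 of the regions of all 3 lists no wider than 985 bp and 5.73 of the control only regions. The rate was lower than in the sites in regions of both merbarone times, at 1.24, and in 1 h only regions, at 1.52. It was 4.96 in regions of control and 30 min and 2.30 in regions of control and 1 h. These rates have no interval. They rest on 8 of the sites, 5 regions of both merbarone times and 10 of 1 h only, so their order is a description alone. Within 1 kb of a TOP2A peak lay 33 sites (0.336%, 0.239 to 0.471). The share was 0.478% (0.357 to 0.642) in regions of both merbarone times, 0.493% (0.414 to 0.588) in 1 h only regions and 0.747% (0.564 to 0.989) in control only regions, the last with an interval that lies above that of the sites. So did the interval of regions of control and 1 h, at 0.733% (0.535 to 1.005), while that of control and 30 min, at 0.633% (0.444 to 0.902), overlapped it.

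The widest of the 8 sites with TOP2A spanned 367 bp on chromosome 14 from 53618923 to 53619289 and held a TOP2A peak of 92 bp inside it. The cover of its 1467 bp domain was 46.3% in control, 73.6% at 30 min and 44.8% at 1 h. On chromosome 10 from 128994524 to 128994808, a 285 bp site held a TOP2A peak of 178 bp and stood alone, 259696 bp from the nearest control peak and 46889 bp from the nearest 1 h peak. A 211 bp site on chromosome 18 from 7568142 to 7568352 overlapped a TOP2A peak of 233 bp.

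Of the others, a 191 bp site on chromosome 6 from 112484735 to 112484925 met its TOP2A peak at a single base and was over 10 kb from control and 1 h peaks. The 311 bp site on chromosome 7 from 156932142 to 156932452 lay 37 bp from a control peak. The remaining 3 lay on chromosome 11 from 27744046 to 27744286 (241 bp), on chromosome 3 from 50357624 to 50357814 (191 bp) and on chromosome 8 from 26372061 to 26372227 (167 bp). Thus 2 of the 8 sites with TOP2A, the chromosome 6 site among them, lay over 10 kb from control and 1 h Pol II. These are too few to be set against the 5.24% of all sites that did.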

How the data were processed

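The authors deposited 4 lists of peaks, each peak given by its start and end in bp, with no other score. Reads were aligned with Bowtie 1.2.0 and peaks called with MACS2 on hg19, with deepTools 2.4.1 also used, per the submitters' processing notes. Peak threshold, background library, MACS2 version and the combining of replicates: not given in the sources used here. Depth is unknown. The 3 IgG libraries were not used here. Cells were fixed with 1% formaldehyde for 10 min, per the labels' protocols. Positions were read as counted from 0 and are printed from 1. No genome sequence or annotation of hg19 was used here.

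Peaks of the 3 Pol II lists sharing at least 1 bp were merged, and regions with a peak in the 30 min list only and a width no less than that of the narrowest 1 h peak were kept. Shares have 95% Wilson intervals and medians 95% order-statistic intervals. The text names the 10 widest sites, the 5 widest over 10 kb from control and 1 h peaks, the 5 domains with the most sites, the 5 of at least 5 kb with the largest share of length in sites, and the sites with TOP2A. The 5 clusters with the most sites, the segments of domains and the widths of 30 min peaks by partner were added after their values were seen. Sites and rules were chosen with earlier results of these data known.

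The interval functions gave the expected answer in 7 of 7 checks on simulated lists, against bedtools 2.31.1 or planted sites. Tools were pandas 2.3.3, numpy 2.4.6, matplotlib 3.10.9 and scipy 1.17.1 under Python 3.11.15.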

Additional observations from a re-analysis of the deposited data

How the results depend on the processing

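The lists came with unlike limits (the narrowest peak spanned 136 bp in control and 150 bp at 30 min, and more at 1 h), and no list could be split by library. No paired analysis was possible because each condition has 1 list for all its libraries. Of 75 recomputed values, 22 stayed within their interval or within 1.5 times the count, and 53 did not. All those for the list without chromosome X stayed.

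With peaks of the 3 lists up to 37 bp apart merged, sites were 10.2% of 30 min peaks, the median distances were 991 bp to control and 825 bp to 1 h, 82.1% lay within 5 kb of control and 82.8% of 1 h, 24.3% had another site within 1 kb, and 5.88% lay over 10 kb away. With peaks up to 1000 bp apart merged, 2185 sites remained (3.11% of 30 min peaks), of median width 199 bp, 4698 bp from control and 4533 bp from 1 h, with 51.9% and 53.3% within 5 kb, 20.5% over 10 kb away, 3 with TOP2A and, by construction, 0% with another within 1 kb. With peaks no more than 37 bp apart joined within each list and those narrower than any 1 h peak dropped, sites were 15.2% of 30 min peaks, 197 bp wide, 1339 bp from control, 76.3% within 5 kb of it, and 6.66% over 10 kb away.

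Without a minimum width the share was 15.8%, the width 176 bp, the distances 910 bp to control and 707 bp to 1 h, with 82.5% and 83.7% within 5 kb, and 33.1% had another within 1 kb. At 300 bp or more, 1027 sites remained (1.19%), 346 bp wide, 709 bp from control and 572 bp from 1 h, with 87.6% within 5 kb of control, 8.08% with another within 1 kb, 3.70% over 10 kb away and 2 with TOP2A. With control and 1 h peaks under 300 bp left out, there were 21230 sites (24.7%), 208 bp wide, 3000 bp from control and 1203 bp from 1 h, with 60.3% and 74.3% within 5 kb, 46.9% with another within 1 kb, 14.6% over 10 kb away and 27 with TOP2A. Between midpoints the distances were 1119 bp to control and 1050 bp to 1 h. Another site lay within 500 bp of 18.8% and within 5000 bp of 55.5%, and TOP2A within 1000 bp of 33.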
